A study of Eumeta variegata with 6 samples.

Results

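Cilia and flagella are hair-like cell extensions built on an axoneme, a cylinder of microtubules. In insects they are found in few cell types: the outer segments of mechanosensory and chemosensory neurons, such as those of the antenna and of chordotonal stretch organs, and the tail of sperm. They are assembled by intraflagellar transport, which carries building blocks to the tip and back. In beating axonemes, and in the cilia of Drosophila chordotonal neurons, dynein motors sit on the microtubules. Insect photoreceptors carry their light-sensitive membrane on microvilli, not on a cilium.

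The sequences described here were picked from a de novo transcriptome of heads of the bagworm moth Eumeta variegata, called Clania variegata in the study's title, by words in their protein names such as intraflagellar, axonemal, tektin, Bardet-Biedl, ciliary and cilia- and flagella-associated. The rule used no expression value, but it was set with earlier results of these data known. The words picked 74 of 41283 assembled sequences, 69 by their name in the NR protein database and 5 by their Swiss-Prot name. The libraries came from male heads (3 samples) and female heads (3 samples), with no treatment in the labels, and the work searched for neuropeptides and their receptors. The labels give no age or stage and do not say whether samples came from separate animals, so a p-value below speaks only of the spread over these libraries, and that spread may be technical.

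Levels are given as FPKM, fragments scaled to the length of the sequence and the size of the library, as deposited. The depth of each library is unknown, and the FPKM of a library summed to 480295 at the lowest and 492028 at the highest. Neuronal names were present, with ELAV-like protein 4, an RNA-binding protein of neurons, at a mean of 17.4 FPKM and Synaptobrevin, a synaptic vesicle protein, at 110 FPKM. The ciliated chemosensory marker matched by name was putative ionotropic receptor IR25a, a co-receptor of ionotropic odor receptors, at 2.49 FPKM. The mechanosensory markers matched were a pair of TRPV channels at 0.53 and 0.28 FPKM. Libraries also fell into sets that were not the sexes, by the last digit of the sequence names: males 2 and 3 and female 2 listed fewer zeros among names ending in 1, and male 1 and females 1 and 3 among names ending in 2. Beside each cilium-named or list sequence that passed the test, the log2 difference is therefore also given inside each set, first for the set with female 2 and then for that with male 1.

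The 74 sequences carried 42 different names, so several often stand for a single gene. A second annotation also pointed to a cilium or dynein protein in 56 of them, 15 had no other annotation, and 3 had another that did not. Of these, the sequence named Intraflagellar transport protein 80 homolog (TRINITY_DN20799_c0_g2_i1_2) was described as transposon-derived by Swiss-Prot and as reverse transcriptase by KOG. Dynein regulatory complex subunit 5 was closest to Ribonuclease inhibitor in Swiss-Prot and held only leucine-rich repeats. The axonemal dynein heavy chains, the large motor subunits, showed the fragmentation: 17 sequences carried the names of 5 numbered chains. The microtubule-binding stalk, in the middle of such a chain, was found in 5 of them and the C-terminal domain in another 5, and no sequence held both. Of the Gene Ontology terms in the deposited annotation, motile cilium was given to 18 members, non-motile cilium to 5 and flagellated sperm motility to 4.

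Most of these sequences were scarce. The median of their mean levels was 0.77 FPKM, against 2.14 FPKM over all sequences, 43 lay below a mean of 1 FPKM, and 24 were listed at 0 in at least 1 library. Outer dense fiber protein 3-B (TRINITY_DN2444_c0_g1_i19_1) was by far the most abundant, with a mean of 94.3 FPKM. Proteins of this family carry the sperm-tail PG-rich repeat and, in mammals, belong to the microtubules of sperm tails and cilia. Cilia- and flagella-associated protein 20, an axoneme protein, followed at 24.9 FPKM and Cilia- and flagella-associated protein 410, a leucine-rich repeat protein, at 14.4 FPKM. The other 5 members above 5 FPKM were Bardet-Biedl syndrome 5 protein homolog (8.97 FPKM), a 63 kDa sperm flagellar membrane protein (8.83 FPKM), Dynein assembly factor 5 (8.35 FPKM), a B9 domain protein (8.12 FPKM) and Intraflagellar transport protein 140 homolog (5.13 FPKM). The motor parts of the axoneme were low: the 24 sequences of axonemal dynein and its assembly had a median of 0.71 FPKM, and the 6 of the dynein regulatory complex, which links neighbouring microtubules, 0.58 FPKM. The lowest mean of all, 0.177 FPKM, belonged to a sequence named dynein heavy chain 3, axonemal-like. No radial spoke protein was matched by name.

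**Figure D1:**
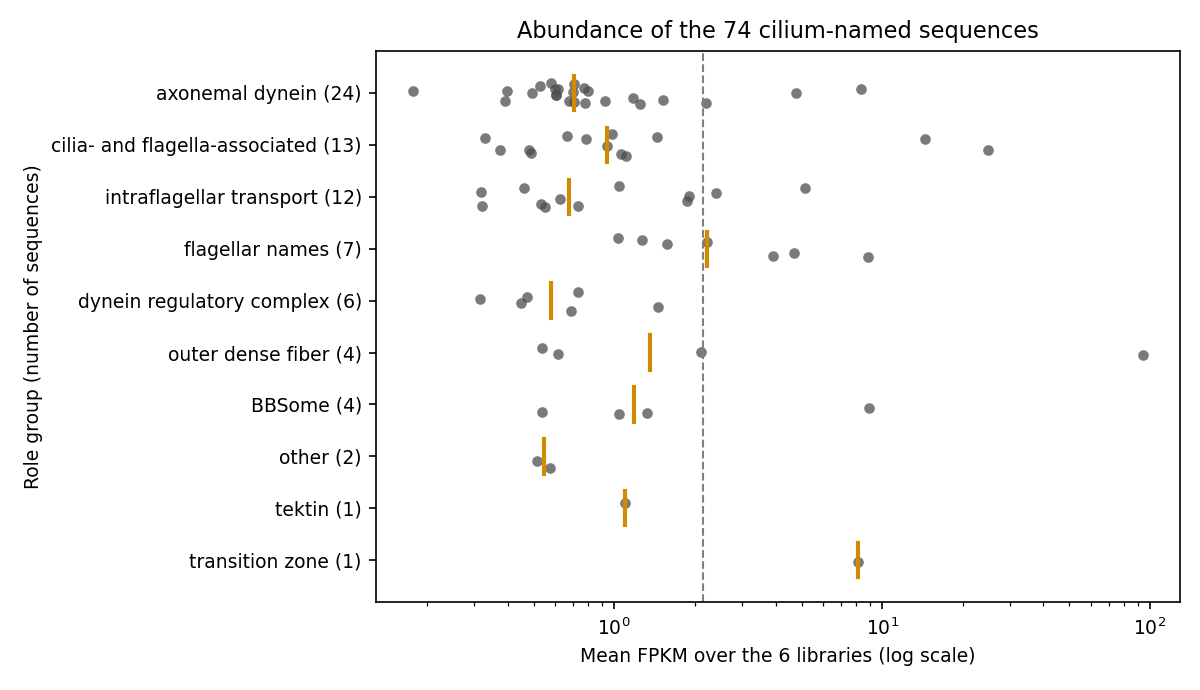
Mean FPKM over the 6 libraries (log axis) of each of the 74 cilium-named sequences (points), by role group, with the group median as an orange bar and the median of all sequences, 2.14 FPKM, as a dashed line. Outer dense fiber protein 3-B stands at 94.3 FPKM, and most axonemal dynein sequences lie below 1 FPKM.

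The spread between samples was mostly wider at low abundance. Among the 8 members above a mean of 5 FPKM the SD within a sex was 1.43% to 20.0% of the mean, with a median of 6.34%. Among the 43 below 1 FPKM its median was 55.1% and it reached 173%. Wide spread was not confined to the lowest: Intraflagellar transport protein 22 homolog, at a mean of 2.39 FPKM, had 3.32 FPKM in male 1, 11.0 FPKM in female 1 and a value listed at 0 in the other 4 libraries. Differences between the sexes were therefore measured well for only a few members.

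The comparison asks which of these sequences differ between male and female heads. It was made with limma on log2(FPKM + 1) over the 35198 sequences that reached 1 FPKM in 3 or more libraries, and the differences below are male minus female on that scale. This understates the change of low sequences. Of the 74 members, 31 could be tested, and 3 were higher in males at an adjusted p below 0.05, against 4.40% of all sequences tested and 7.02% of those with a name. None was higher in females, against 2.70% and 4.87%. An unadjusted limma p below 0.05 in either direction was found in 12 of the 31, against 23.3% of all sequences tested and 3780 of the 11750 with a name. Over all sequences tested 7.11% were called in either direction. Without the filter the calls were again 3 higher in males and 0 in females, of 74, against 3.44% and 2.02%. Of the 31 members, 3 passed the filter through the males alone, among them 2 of the 3 called, and 1 through the females alone. The numbers are also small, so the share says little about the group. In bulk heads, fewer cells of a type and less RNA per cell cannot be told apart.

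The call with the smallest error was a 63 kDa sperm flagellar membrane protein (TRINITY_DN2811_c0_g1_i1_1), named after a membrane protein of sea urchin sperm and holding the Pfam domain called putative sperm flagellar membrane protein. It had 11.2, 12.04 and 10.9 FPKM in males 1, 2 and 3, and 5.96, 6.74 and 6.17 FPKM in females 1, 2 and 3. Every male lay well above every female. The log2 difference was 0.76 (SE 0.08, limma adjusted p = 0.0059), with 0.69 and 0.78 within the library sets, and the adjusted p over the alternatives ran from 0.0056 to 0.042. The other 3 sequences of this name, of which the most abundant holds a calcium-binding EGF domain, overlapped between the sexes, with log2 differences of 0.43, 0.21 and -0.20. The name therefore covers sequences with unlike patterns.

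The largest log2 differences were in axoneme proteins at under 1 FPKM in every female head. Cilia- and flagella-associated protein 43 (TRINITY_DN23199_c0_g1_i1_1), which in mammals is needed for the sperm axoneme, had 2.32, 1.88 and 1.50 FPKM in the males. In the females it had 0.092, 0.047 and 0.068 FPKM. The log2 difference was 1.43 (SE 0.24, limma adjusted p = 0.024), with 1.36 and 1.62 within the library sets. It passed the filter through the males alone, so the values that let it be tested are those in which it was high. Leaving out any of the 6 libraries ended the call of this sequence, as did a pseudocount of 0.1, the limma adjusted p over the alternatives running from 0.022 to 0.086.

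Cilia- and flagella-associated protein 61, part of the radial spokes in model ciliates and algae and needed for sperm tails in mice, was represented by 3 sequences, and in all of them males were higher without overlap, against 17.4% of all sequences and 25.0% of those with a name. The called sequence (TRINITY_DN19090_c1_g8_i1_1) had 2.38, 1.84 and 1.09 FPKM in males and 0.16, 0 and 0.16 FPKM in females. Its log2 difference was 1.30 (SE 0.28, limma adjusted p = 0.047), with 1.28 and 1.54 within the library sets. This call too ended when any of the 6 libraries was left out, with a pseudocount of 0.1 and with the library sets in the model (limma adjusted p over the alternatives 0.047 to 0.14). The other pair was singled out after the values were seen. A neighbour in the same assembly cluster had 1.68, 1.97 and 1.40 FPKM in males against 0.29, 0.55 and 0.44 FPKM in females, a log2 difference of 0.91 (limma adjusted p = 0.077). Like the called sequence, it passed the filter through the males alone. The third, from another cluster, had 1.63, 0.70 and 0.85 FPKM against 0.27, 0.32 and 0.23 FPKM and was too low to be tested. Sequences that share a name may be pieces of 1 transcript, so these are not counted as independent observations.

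Of the 4 sequences named Cilia- and flagella-associated protein 57, none reached the filter and 1 had the higher mean in males. Cilia- and flagella-associated proteins 206, 251 and 91 all had the higher mean in females, at 1.71 against 1.19 FPKM, 1.32 against 0.90 FPKM and 0.45 against 0.30 FPKM. The first and the last of them did not overlap between the sexes, and neither of those tested passed (limma adjusted p = 0.44 and 0.73).

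**Figure D2:**
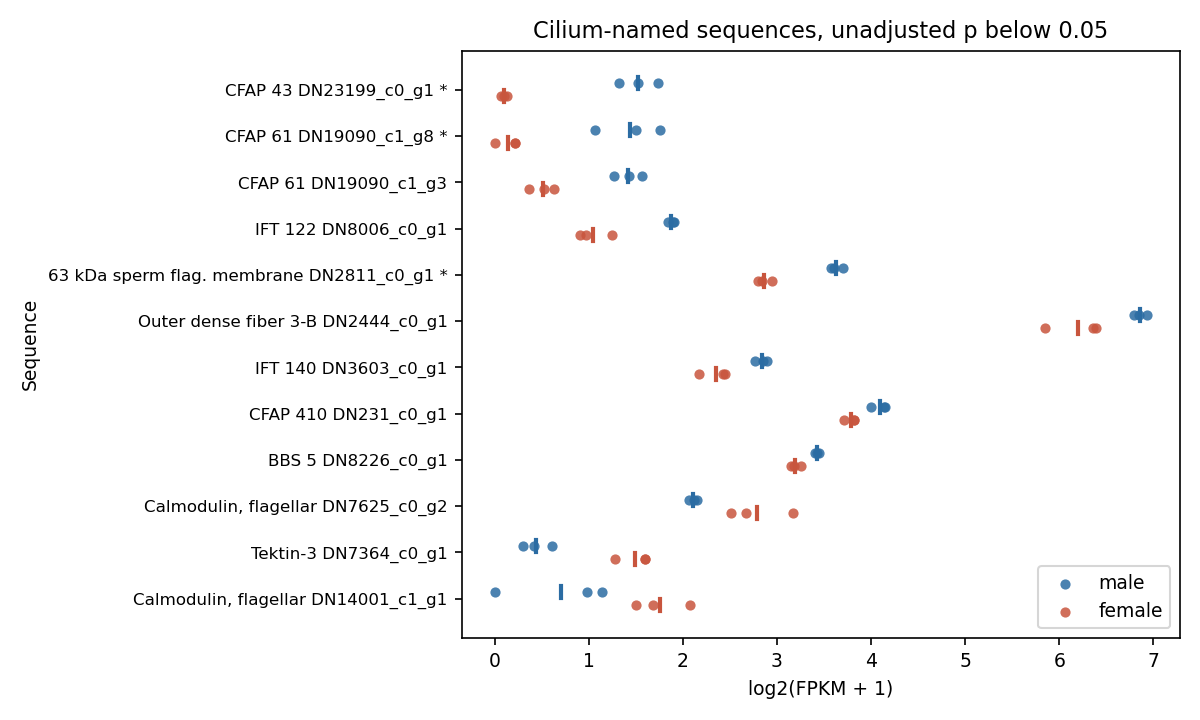
log2(FPKM + 1) in each male (blue) and female (red) library for the 12 tested members with an unadjusted limma p below 0.05, with bars at the means of 3 samples; asterisks mark an adjusted p below 0.05. Male and female points do not overlap in any of the 12 sequences, and the Tektin-3 and 2 Calmodulin, flagellar sequences alone are higher in females.

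Intraflagellar transport is carried by complex B towards the tip and by complex A on the way back. Of its 12 sequences, 3 could be tested and none passed, and 2 of the 3 had an unadjusted limma p below 0.05. These were members of complex A. Intraflagellar transport protein 140 homolog had 5.83, 6.20 and 6.42 FPKM in males and 4.45, 4.38 and 3.51 FPKM in females, a log2 difference of 0.49 (SE 0.12, limma adjusted p = 0.066). Intraflagellar transport protein 122 homolog (TRINITY_DN8006_c0_g1_i1_1) had 2.57, 2.73 and 2.72 FPKM in males and 1.38, 0.96 and 0.88 FPKM in females, a log2 difference of 0.83 (SE 0.21, limma adjusted p = 0.067). In both, each male exceeded each female. Among the sequences named for complex B the most fragmented was Intraflagellar transport protein 172 homolog, with 5 sequences at means of 0.32 to 0.73 FPKM. All 5 had a higher mean in males and 2 lay higher in males without overlap, as 17.4% of all sequences did. The clearer of these, chosen after the values were seen, had 0.87, 1.28 and 0.52 FPKM in males and 0.089 FPKM in female 1, and was listed at 0 in the other females. Intraflagellar transport proteins 88 and 57 stayed below 1 FPKM in every library, at means of 0.32 and 0.63 FPKM. Intraflagellar transport protein 74 homolog had the higher mean in females, 1.38 against 0.70 FPKM, and overlapped.

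The BBSome, a coat complex that moves membrane proteins in and out of cilia, was named in 4 sequences, and none of the 3 tested passed the limma test, with 1 at an unadjusted p below 0.05. Bardet-Biedl syndrome 5 protein homolog had 9.79, 9.62 and 9.90 FPKM in males and 7.85, 8.57 and 8.08 FPKM in females (log2 difference 0.23, SE 0.07, limma adjusted p = 0.11). The sexes did not overlap, and no male differed from another by as much as the sexes did. The 3 sequences of Bardet-Biedl syndrome 1 protein homolog overlapped, and 1 of them was listed at 0 in males 1 and 2 and female 3 but had 2.83 FPKM in female 1. The B9 domain protein, of the transition zone that gates the base of the cilium, had 8.50 to 8.85 FPKM in males and 6.61 to 8.97 FPKM in females (limma adjusted p = 0.40).

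Among the 24 sequences of axonemal dynein and its assembly factors, 6 were tested. By limma none passed and 0 reached 0.05 unadjusted. The leader, Dynein assembly factor 5, which helps fold the motors in the cytoplasm, had 8.98, 9.79 and 8.30 FPKM in males and 8.40, 7.80 and 6.85 FPKM in females (log2 difference 0.21, limma adjusted p = 0.29). Dynein assembly factor 1 homolog lay the other way, with 0.26, 1.10 and 1.10 FPKM in males and 2.15, 1.57 and 1.28 FPKM in females (log2 difference -0.58, limma adjusted p = 0.33). The 7 sequences named heavy chain 8, an outer arm motor, had means of 0.53 to 0.92 FPKM and all overlapped between the sexes. Over the 24, males were higher without overlap in 4 (16.7%) and females in 1, against 17.4% and 10.9% of all sequences and 25.0% and 15.4% of named ones. Dynein heavy chain 10 and Dynein intermediate chain 2, axonemal, both below the filter, were singled out after the values were seen. Dynein heavy chain 10, an inner arm motor, had 0.73, 0.83 and 0.81 FPKM in males, 0.60 FPKM in female 3 and values listed at 0 in females 1 and 2. Dynein intermediate chain 2, axonemal, which ties the outer arm to its microtubule, had 0.82, 0.78 and 0.85 FPKM in males against 0.55, 0.33 and 0.29 FPKM in females, also without overlap. The 3 sequences named Dynein intermediate chain 2, ciliary all overlapped between the sexes. Dynein light chain 4 had 3.07 to 6.42 FPKM in females, a range that held all 3 males. The dynein regulatory complex gave 6 sequences, all overlapping between the sexes. The only 1 tested, subunit 3, was listed at 0 in male 1 and had 2.92 FPKM in male 3, and the sign of its difference turned when male 1 or female 1 was left out.

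TOG array regulator of axonemal microtubules protein 1, which in other animals helps shape ciliary microtubules, was represented by 2 sequences below the filter. The first (TRINITY_DN23207_c0_g1_i1_1) had 1.75, 1.19 and 0.50 FPKM in males and was listed at 0 in all 3 females. The second, whose other annotation was not of a cilium, overlapped between the sexes, with means of 0.66 and 0.37 FPKM. The first had no second annotation of a cilium either.

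The leading outer dense fiber protein 3-B sequence had 114.3, 121 and 110.0 FPKM in males and 56.5, 83.0 and 80.9 FPKM in females. Males exceeded all females, and female 1 lay below the other females. The log2 difference of 0.66 (SE 0.15) gave a limma adjusted p of 0.051, which missed the threshold. Without female 1 the adjusted p was 0.015 and the log2 difference 0.49. A second sequence of that name, with 2.0 to 2.35 FPKM in males, overlapped between the sexes (limma adjusted p = 0.91). Both sequences of Outer dense fiber protein 3-like protein 2 lay below the filter, with male means of 0.89 and 0.82 FPKM and female means of 0.34 and 0.25 FPKM, and the first did not overlap. Cilia- and flagella-associated protein 410 was as close to the threshold, with 16.6, 16.8 and 15.0 FPKM in males against 13.1, 12.2 and 13.1 FPKM in females (log2 difference 0.31, SE 0.07, limma adjusted p = 0.050, just above it). Cilia- and flagella-associated protein 20 had 24.2 to 27.7 FPKM in males and 20.9 to 26.4 FPKM in females, and overlapped.

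Not every axonemal name leaned to the males. Tektin-3 (TRINITY_DN7364_c0_g1_i2_2), a filament protein bound to the microtubule wall of axonemes, had 0.53, 0.23 and 0.34 FPKM in males and 2.02, 1.43 and 2.02 FPKM in females. Its log2 difference was -1.05 (SE 0.24, limma adjusted p = 0.058), with -0.93 and -0.98 within the library sets. Tektin-3 passed the filter through the females alone. Each of 2 sequences named Calmodulin, flagellar also lay higher in all females: 4.72, 5.35 and 8.04 FPKM against 3.44, 3.17 and 3.34 in males (limma adjusted p = 0.091), and 2.20, 1.83 and 3.23 FPKM against 0.97, 0 and 1.21 (log2 difference -1.05, SE 0.38, limma adjusted p = 0.16). None of the 3 sequences with this name had any second annotation, and calmodulin is a calcium sensor of all cells. Neither these differences nor that of Tektin-3 passed the test.

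**Figure D3:**
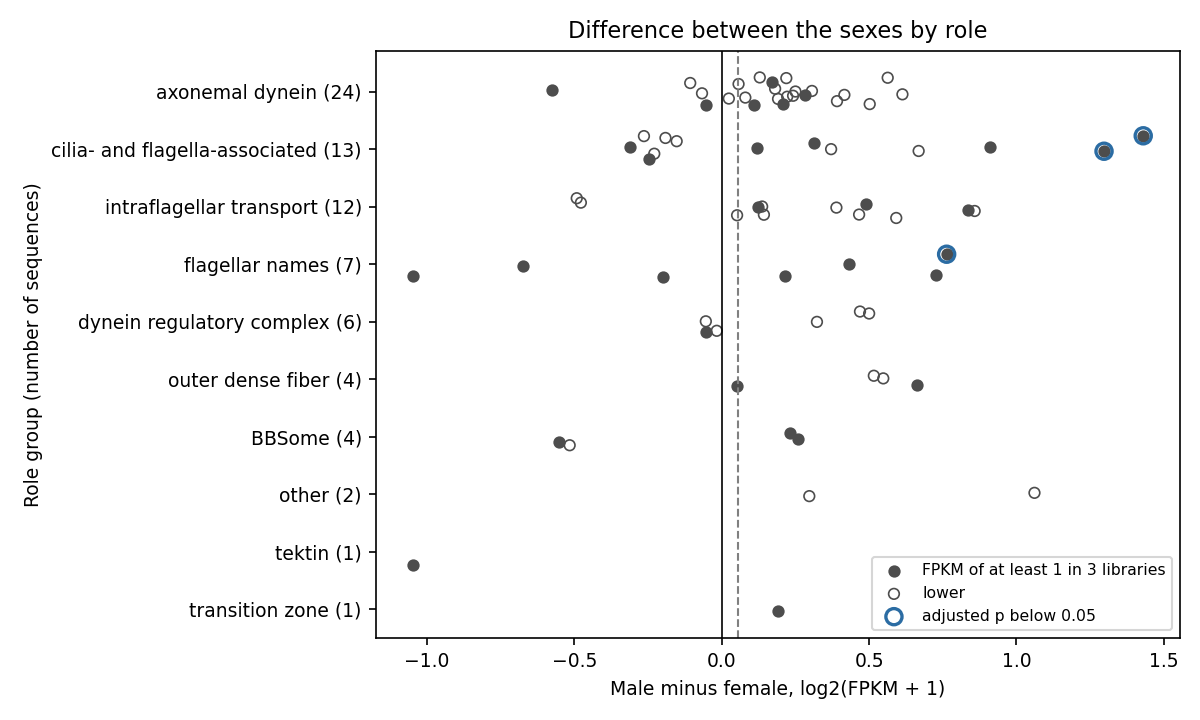
Male minus female difference of mean log2(FPKM + 1), 3 samples a sex, for each of the 74 sequences by role group. Filled points reached an FPKM of at least 1 in 3 libraries and were tested, open points were lower; blue rings mark an adjusted p below 0.05, and the dashed line is the median of all sequences, 0.06. The 3 ringed points lie at 0.76, 1.30 and 1.43, and Tektin-3 is at -1.05.

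Over all 74 members, the males did not overlap the females and were higher in 19, or 25.7%, against 17.4% of all sequences and 25.0% of sequences with a name. The share in the members is thus close to that of named sequences in general. Females were higher without overlap in 6, against 10.9% of all sequences and 15.4% of named ones. The male mean was the higher one in 55 of 74 (74.3%), against 54.8% of all sequences and 57.1% of named ones. Over the members the median log2 difference without any filter was 0.21, against 0.06 over all sequences. Scarce named sequences lean to males in general. Below a mean of 1 FPKM the male mean was higher in 81.4% of members and 66.2% of named sequences, with median differences of 0.25 and 0.165. At 1 FPKM or more the shares were 64.5% and 55.7%, and the medians 0.123 and 0.045. As fragments of a gene repeat each other, these shares carry no test.

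The lean to males sat with the names ending in 1. Of the 46 members with that ending the male mean was higher in 40 (87.0%, against 64.9% of all sequences so named), and all 3 calls were among its 20 tested members (5.59% of all such sequences tested were higher in males). Males were higher without overlap in 16 of them (34.8%) and females in 2, against 22.3% and 7.62% of all such sequences. Among sequences with a protein name and this ending, the male mean was higher in 63.1%. Of those tested 8.20% were called higher in males. Males were higher without overlap in 29.2% of them, and females in 904 of 7304. Of the 28 members with ending 2 it was higher in 15 (53.6%, against 43.2%), none of 11 tested passed the limma test (against 3.03% higher in males) and 2 had an unadjusted p below 0.05. Males were higher without overlap in 3 and females in 4, against 11.6% and 14.8%. The ending therefore moved with the result in the members as in the whole table, and its part in it was not tested. Within both library sets 34 members were higher in males and 12 in females, and 28 changed sign or had no difference in a set. Higher in males within both sets were 45.9% of members, 36.3% of all sequences and 43.5% of named ones.

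**Figure D4:**
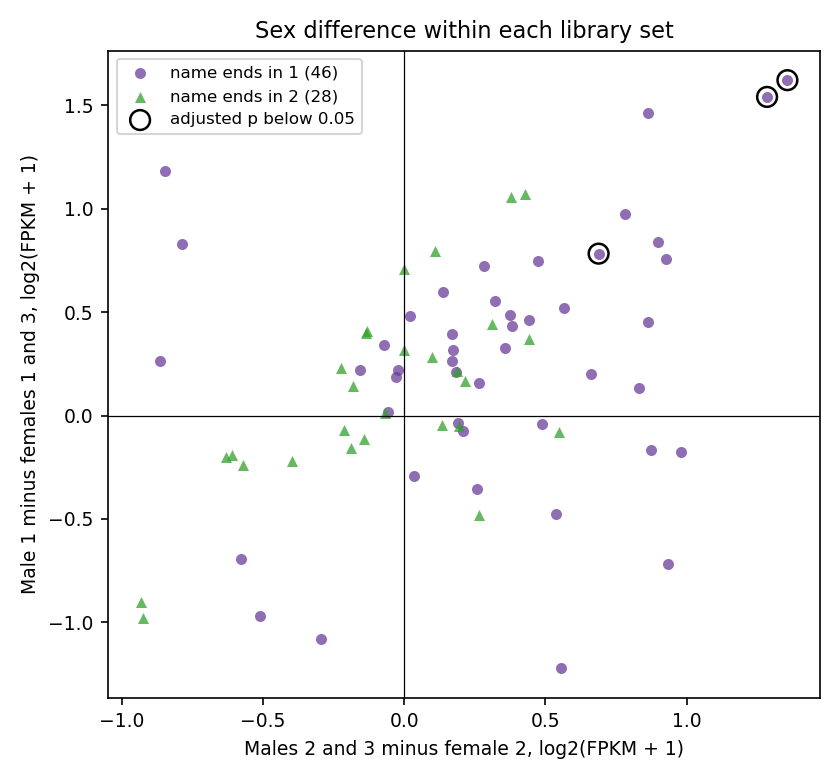
Difference of mean log2(FPKM + 1) between males 2 and 3 and female 2 (horizontal axis) and between male 1 and females 1 and 3 (vertical axis) for each of the 74 members, by the ending of the sequence name. Rings mark the 3 members with an adjusted p below 0.05, which lie above 0.68 on both axes; 34 members are above 0 on both axes and 12 below 0 on both.

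Other proteins of the cilium were followed in lists matched by name, with the members left out. The calls in these lists, and in the marker lists after them, stand beside 4.40% of all tested sequences higher in males and 2.70% in females. Of tested sequences with a name the shares were 7.02% and 4.87%. Ciliary transport motors and cargo factors had 14 of 18 sequences tested, with 1 higher in females and none in males. It was ADP-ribosylation factor-like protein 3 (TRINITY_DN2553_c0_g1_i4_2), a small GTPase that releases lipid-bound cargo inside cilia, with 5.81, 6.49 and 7.48 FPKM in males and 22.3, 17.2 and 21.0 FPKM in females. Its log2 difference was -1.48 (SE 0.13, limma adjusted p = 0.0032), with -1.19 and -1.73 within the library sets. Kinesin-associated protein 3, the cargo adaptor of the ciliary kinesin, was the most abundant at 21.4 FPKM and did not pass (log2 difference -0.20, limma adjusted p = 0.14). Kinesin-like protein KIF3A, a motor subunit, had 10.6 FPKM in males and 13.3 FPKM in females (limma adjusted p = 0.087). Over the list the male mean was the higher one in 11 of 18 (61.1%), against 54.8% of all sequences and 57.1% of named ones. Without overlap, 6 lay higher in males (against 17.4% of all and 25.0% of named sequences) and 3 in females (against 10.9% and 15.4%). Both Kinesin-like protein Klp68D sequences, of another motor subunit, were among the 6, with log2 differences of 0.43 and 0.23 (limma adjusted p = 0.11 and 0.37).

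Axoneme proteins under other names had 4 of 11 sequences tested and none passed by limma, with 2 below 0.05 unadjusted. Sperm-associated antigen 7, the most abundant at 68.9 FPKM, had a log2 difference of -0.06, and its name alone does not place it in the axoneme. The 2 were both named EF-hand domain-containing family member B, of the axonemal microtubule wall in mammals, and like Tektin-3 they lay higher in every female. They had 4.73, 2.45 and 1.69 FPKM in females against 0.56, 0.16 and 0.36 in males (log2 difference -1.48, limma adjusted p = 0.057), and 2.64, 4.42 and 1.54 FPKM against 0.56, 0.20 and 0.18 (-1.50, limma adjusted p = 0.054). They passed the filter through the females alone and were singled out after their values were seen. The list of centriole and basal body names had 18 of 18 tested, none passing by limma and 1 below 0.05 unadjusted. Centrioles and basal bodies anchor cilia but also serve dividing cells. The list also took in RFXANK, RFX5 and RFX2-like, which are named as DNA-binding proteins and not as parts of the centriole. Pericentriolar material 1 protein, the most abundant at 24.2 FPKM, had a log2 difference of -0.01.

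Tubulins and the enzymes that add glutamate chains to them had 13 of 15 sequences tested, with 3 higher in males and 1 in females. Tubulin alpha chain, found in all microtubules and not only in axonemes, had 898, 826 and 788 FPKM in males and 418, 485 and 495 FPKM in females (log2 difference 0.84, SE 0.10, limma adjusted p = 0.0075, with 0.73 and 0.98 within the sets). A tubulin beta chain-like sequence had 112.6 ± 0.69 FPKM in males and 69.6 ± 0.40 FPKM in females (mean ± SD, n = 3 each; log2 difference 0.69, SE 0.04, limma adjusted p = 0.0012, with 0.69 and 0.67 within the sets). Of the 4 sequences named Tubulin beta-1 chain, 1 (TRINITY_DN7575_c0_g1_i8_2) was higher in males (0.68, limma adjusted p = 0.047, with 0.67 and 0.66 within the sets). The others had log2 differences of 0.65, 0.47 and -0.24 and did not pass. A Tubulin polyglutamylase TTLL4 sequence was higher in females (-0.70, limma adjusted p = 0.029, with -0.64 and -0.79 within the sets). The calls of Tubulin beta-1 chain and TTLL4 ended without most single libraries and with the library sets in the model.

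Markers of cells that could hold these proteins were read beside them. The 2 TRPV channel sequences, of a family that in Drosophila opens in chordotonal cilia, were too low to be tested; their summed level was 0.69 to 1.71 FPKM in males and 0.18 to 0.61 FPKM in females. The subfamily V member with the higher level had 0.69, 0.85 and 0.94 FPKM in males and 0.18, 0.30 and 0.24 FPKM in females. IR25a had 2.40 to 2.88 FPKM in males and 2.10 to 2.49 FPKM in females (limma adjusted p = 0.66). Of 9 neuronal sequences 6 were tested and 1, synaptotagmin 1, was higher in males (log2 difference 0.48, limma adjusted p = 0.019, with 0.53 and 0.40 within the sets). Its call ended with the library sets in the model and without any male or female 2 (limma adjusted p up to 0.080). Their summed level was 167 to 174 FPKM in males and 165 to 183 FPKM in females. Of 14 photoreceptor sequences 10 were tested and 1, chaoptin isoform X1, was higher in males (0.52, limma adjusted p = 0.0058, with 0.57 and 0.52 within the sets). Their summed level was 46.7 to 49.6 FPKM in males and 28.4 to 36.4 FPKM in females. The male mean was the higher one in 13 of the 14 (92.9%), against 74.3% of the cilium-named members. Over all sequences this share was 54.8%, and over named ones 57.1%. Males were higher without overlap in 8 (57.1%), against 25.7% of those members, 17.4% of all sequences and 25.0% of named ones. Females were higher without overlap in 0, against 10.9% of all sequences and 15.4% of named ones. Several photoreceptor sequences share a name, such as chaoptin or Arrestin homolog, and may be pieces of a single gene. The male mean was higher in 5 of the 9 neuronal sequences (55.6%), near the share of all sequences. In the germ line list it was higher in 6 of 17 (35.3%).

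Germ line, testis and sperm names gave 17 sequences, of which 15 were tested, none was higher in males and 2 were higher in females. Their summed level was 128 to 141 FPKM in males and 155 to 162 FPKM in females. Vasa, a germ line RNA helicase, led with 31.1 FPKM and did not pass (log2 difference -0.25, limma adjusted p = 0.067). Meiotic recombination protein DMC1/LIM15 homolog, of meiotic strand exchange, had 8.54, 8.05 and 7.29 FPKM in males and 14.9, 14.3 and 14.6 FPKM in females (log2 difference -0.80, limma adjusted p = 0.0041, with -0.83 and -0.72 within the sets). Spermatogenesis-associated protein 20, a name from mammalian testis, had 25.3 FPKM in males and 33.2 FPKM in females (log2 difference -0.38, limma adjusted p = 0.023, with -0.40 and -0.32 within the sets). Its call ended with the library sets in the model and without any library but female 1 (limma adjusted p up to 0.096). The largest difference of the list lay the other way: Nanos homolog 3, of a family of germ line RNA-binding proteins, had 2.58, 2.01 and 1.78 FPKM in males and 0.42, 0.45 and 0.82 FPKM in females and did not pass (log2 difference 0.998, limma adjusted p = 0.066). This sequence passed the filter through the males alone. Protein boule, a regulator of male meiosis in Drosophila, had 2.07 FPKM in males and 1.84 FPKM in females (limma adjusted p = 0.84). Synaptonemal complex protein 3 had 4.95 and 4.73 FPKM (limma adjusted p = 0.88). Protamine, the sperm chromatin protein, was not matched by name. Muscle names gave 19 sequences, of which 18 were tested, with 2 higher in males and 2 in females. Higher in males were Troponin I (log2 difference 0.35, with 0.36 and 0.34 within the sets) and a Titin homolog (0.57, with 0.54 and 0.61). Higher in females were flightin isoform X1 (-1.36, with -1.30 and -1.47) and troponin C (-0.58, with -0.58 and -0.58). The Titin homolog and troponin C calls ended with the library sets in the model and without any male or female 2 (limma adjusted p up to 0.099 and 0.076). That of the Titin homolog also ended without female 1. The summed level of the muscle sequences ran from 753 to 931 FPKM in males and from 677 to 985 FPKM in females. The part of any of these cell types in the differences of the cilium-named sequences was not tested.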

How the data were processed

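Per the labels' protocols, Trizol was used to extract total RNA, and a stranded mRNA kit to make the libraries. Trimmomatic, HTSeq and R 3.2.0 appear in the submitters' processing notes, with no role. Neither an aligner nor the assembler's version is named in those notes or labels. The values used are FPKM as deposited, made by the authors per sequence of their assembly, whose names have the form that Trinity writes. Depth is unknown, so counting error cannot be given.

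Samples were grouped by the labelled sex. A sequence took its NR name, or its Swiss-Prot name where NR gave none or said hypothetical or uncharacterized. Males and females were tested against each other, two-sided, on log2(FPKM + 1) in limma 3.58.1 (R 4.3.3) with its intensity trend. Adjustment was by Benjamini-Hochberg over 35198 sequences, with a threshold of 0.05. The fit was checked on simulated data. Named by rule were all members past the threshold, in each role group the most abundant and the tested member with the largest difference, and the called and most abundant sequences of the related lists; other names were chosen after their values were seen. Members and lists were chosen with earlier results of these data known. Alternatives were a pseudocount of 0.1, no filter, median-of-ratios scaling, a replicate block, a term for the library sets and each library left out; restriction to doubly annotated members was chosen after seeing the data.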

Additional observations from a re-analysis of the deposited data

How the results depend on the processing

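Calls among cilium-named sequences numbered 3, all in doubly annotated members, which is a recount of the same fit and not a further test. Calls again numbered 3 without a filter and with median-of-ratios scaling, and 2 with the library sets in the model. They numbered 1 with a pseudocount of 0.1 or a replicate block, and 1 to 2 with a library left out, lowest without any male, female 2 or female 3; without female 1 the 2 were the 63 kDa protein and Outer dense fiber protein 3-B, so of the 3 first called only the 63 kDa protein passed in each of these 6 fits. With the replicate block the calls of Tubulin alpha chain, Troponin I, synaptotagmin 1, Spermatogenesis-associated protein 20 and the Titin homolog were among those lost. Over all sequences the 2501 calls became 631 with the replicate block and 1136 with the library sets, and 822 to 1776 with a library left out. Of all calls 61.9% were higher in males, and 49.8% with median-of-ratios scaling, which moved the median log2 difference of all sequences from 0.05 to -0.01. Dynein regulatory complex subunit 3, at -0.06, turned to 0.52 without male 1 and 0.13 without female 1, and was lowest, at -0.47, without male 3. The cause of these changes was not tested. Same-numbered males and females correlated at 0.11, 0.12 and -0.05 in their deviations from the group means, so the numbers were not taken as pairs. Of 165 values of the 15 named sequences tested under 11 alternatives, 145 kept their sign and side of the threshold. Unknown depth limits the 43 members below 1 FPKM most.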
